A study of Mus musculus with 28 samples.

Results

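The nuclei of mouse embryoid bodies (EBs) collected at day 4 of differentiation, with or without EOMES depletion, made up 8680 of the 31596 annotated cells of the data set and 4 of its 14 libraries. Members were chosen by library: every annotated cell of the day 4 libraries was kept, whatever its type. WT exp1 held 1443 cells, WT exp2 2818, Eomes-KD exp1 1453 and Eomes-KD exp2 2966. Both arms came from the same mouse embryonic stem cell line, a single clone with a Runx1Venus reporter and an EomesmCherry-degron allele, so the WT cells carry the tagged allele too and differ from the Eomes-KD cells only in treatment. All EBs had received VEGF, BMP4 and Activin A from day 2, WT EBs were given DMSO at day 3 and Eomes-KD EBs 100 nM dTAG-13 at day 3, and collection at day 4 fell at the end of that window. Each of the 2 experiments (exp1 and exp2), which were separate differentiations run weeks apart, gave 1 WT and 1 Eomes-KD library.

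EOMES, a transcription factor of the T-box family, acts in the primitive streak (PS), the region through which epiblast cells leave to form mesoderm and endoderm. The extraembryonic mesoderm (ExEM) that leaves the PS builds the blood islands, endothelium and mesenchyme of the yolk sac (YS), and also the allantois, from which the vessels of the umbilical cord develop. A degron is a protein tag through which a small molecule, here dTAG-13, hands the tagged protein to the ubiquitin ligase machinery for destruction, so depletion can be confined to a chosen interval. Hematoendothelial (HE) cells are the Kdr-expressing precursors of endothelium and blood.

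Each cell carried several annotations, and the day 4 cells were compared in each of them. The cell type is the name given to clusters of the combined RNA and chromatin data, 12 types in all. The extended atlas label is the cell type of the 25 nearest cells of a mouse gastrulation atlas, the mapped stage is the embryonic day (E6.5 to E8.5) of those atlas cells, and the MOFA cluster is 1 of the 18 clusters from which the types were built. No expression value of a gene was analysed, so neither the removal of EOMES nor the marker genes of a type could be examined, and types were set only against the atlas labels of the same cells. Label and stage are both read from the same RNA neighbours and are not independent of each other.

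The libraries differed in depth by experiment more than by treatment. Median RNA counts per cell were 23017 in WT exp1 and 18792 in Eomes-KD exp1, against 11269.5 in WT exp2 and 10527.5 in Eomes-KD exp2, and the total per library ranged from 28250991 to 35951533. Median mitochondrial percent was higher in Eomes-KD than in WT within both experiments, at 8.26 against 7.41 in exp1 and 5.69 against 4.755 in exp2, and its part in the results was not tested. Median label scores, the share of the 25 neighbours behind a label, lay between 0.72 and 0.80 for extended labels and between 0.40 and 0.44 for stages. Pairs of day 4 libraries shared between 1 and 12 cell barcodes. Where no cell was found, the floor of 3 cells corresponds to 0.208% of WT exp1 and 0.101% of Eomes-KD exp2, and this floor, like the 95% Wilson intervals in the plots, covers counting error only.

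The first comparison asked which cell types the EBs contained once EOMES had been absent for the window from day 3 to day 4. Posterior mesoderm rose and mesenchyme fell in Eomes-KD. Posterior mesoderm, an ExEM population that the study places on the path to the allantois, made up 8.25% of WT exp1 and 14.1% of WT exp2 but 43.4% of Eomes-KD exp1 and 68.9% of Eomes-KD exp2. Mesenchyme, the stromal ExEM type, made up 33.1% and 36.9% of the WT libraries but 5.78% and 2.16% of the Eomes-KD libraries. Neither type overlapped between the groups, which 2 libraries against 2 do with a probability of 0.33 even without a difference. Posterior mesoderm rose by 2.33 on the log2 scale (SE 0.51, adjusted p = 0.0283) and mesenchyme fell by 3.15 (SE 0.74, adjusted p = 0.0283; edgeR's quasi-likelihood test with Benjamini-Hochberg adjustment over the 12 types). These were the only types called among the 12, 1 in each direction or 8.33%, and 2 in each direction had an unadjusted p under 0.05. Within experiments, posterior mesoderm was 5.27-fold and 4.88-fold higher, and mesenchyme 5.73-fold and 17.1-fold lower, so the size of the second change depended on the experiment.

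HE cells formed the largest type of the WT exp1 library, 39.7% of its cells, and 31.3% of WT exp2. They made up 12.3% of Eomes-KD exp1 and 4.79% of Eomes-KD exp2, 3.22-fold and 6.53-fold lower than in the WT library of the same experiment. The groups did not overlap, but the 2 Eomes-KD libraries lay far apart, and the difference did not pass the test (log2 -2.06, SE 0.94, adjusted p = 0.118 by edgeR). Blood progenitors, which develop from HE cells, numbered 10 and 4 cells in WT and 0 in both Eomes-KD libraries (adjusted p = 0.118 by edgeR). That is at least 6.15-fold lower when 3 cells over the group are taken as the floor. With 3 cells per library as the floor, the type was at least 3.36-fold lower in exp1 and 1.40-fold in exp2. HE precursors numbered 7 and 39 cells in WT, against 1 and 9 in Eomes-KD, higher in exp2 than in exp1 under either treatment (log2 -2.19, adjusted p = 0.118).

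Early mesoderm was split in the annotation into types coded EOi and EOd, and the codes are used here as names only. EOi cells were 1.18% and 2.63% of the WT libraries and 4.27% and 6.91% of the Eomes-KD libraries (log2 1.54, SE 0.56, adjusted p = 0.0971). EOd cells went the other way, with 1.80% and 1.77% in WT and 0.482% and 0.101% in Eomes-KD (log2 -2.76, SE 0.82, adjusted p = 0.0550). Neither pair of groups overlapped, and neither type passed the test.

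Allantois precursors made up 10.2% and 5.89% of WT and 27.3% and 9.95% of Eomes-KD. The Eomes-KD library of exp2 thus held a smaller share than the WT library of exp1, although within each experiment the share was higher with dTAG-13, by 2.68-fold and 1.69-fold (log2 1.21, adjusted p = 0.251). Endothelium numbered 4 and 3 cells in WT and 18 and 4 in Eomes-KD (log2 1.82, adjusted p = 0.325), and allantois at most 2 cells in any library. PS cells, at 2.43% and 2.77% in WT and 2.82% and 3.14% in Eomes-KD, differed by 0.20 on the log2 scale (adjusted p = 0.696). Primordial germ cells (PGCs), the founders of the germline, held 1.80% and 2.98% of WT and 2.13% and 3.64% of Eomes-KD, a difference of 0.27 (adjusted p = 0.696) that was no larger than the gap between experiments.

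**Figure D1:**
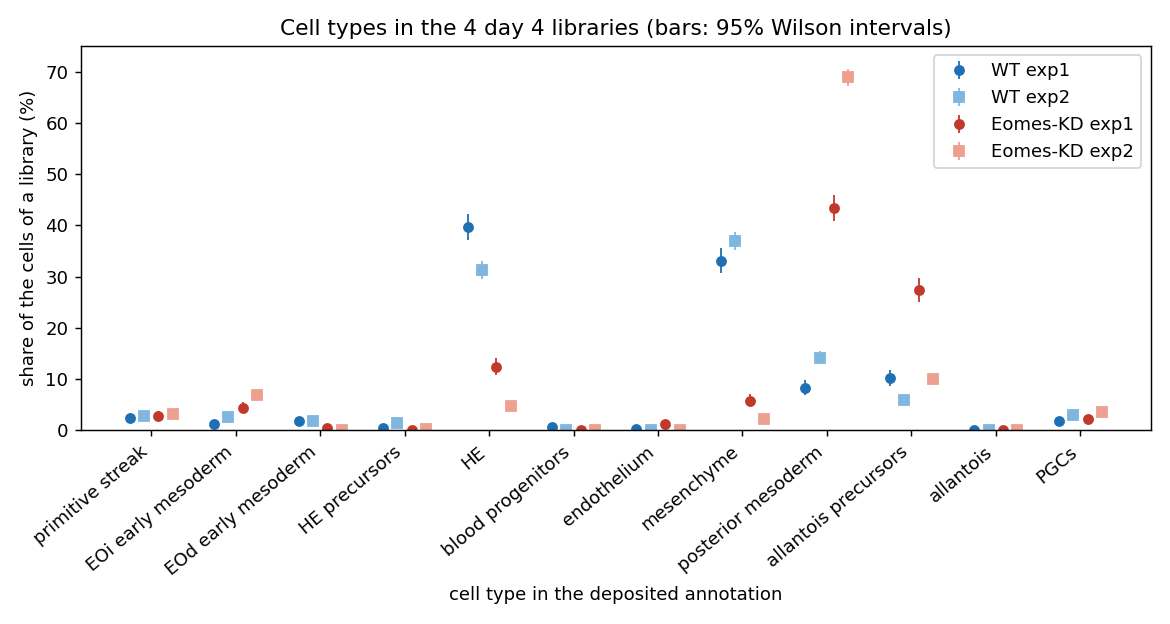
Share of cells (%) of each cell type in the 4 day 4 libraries, with circles for exp1, squares for exp2, blue for WT, red for Eomes-KD and bars for 95% Wilson intervals. The WT libraries hold 33.1% and 36.9% mesenchyme and the Eomes-KD libraries 5.78% and 2.16%, while posterior mesoderm reaches 43.4% and 68.9% in Eomes-KD.

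Added over lists of types, the YS list (EOd early mesoderm, HE precursors, HE and blood progenitors) held 42.7% and 34.6% of the WT cells and 12.9% and 5.19% of the Eomes-KD cells. EOd cells, at most 1.80% of a library, were placed in this list by choice, since the study does not define the code. The allantois list, made of allantois, its precursors and posterior mesoderm, held 18.5% and 20.01% in WT and 70.9% and 78.8% in Eomes-KD. Shares add to the whole of a library, so a lower share of 1 type raises the others, and absolute cell numbers were not analysed here. When shares were taken over non-YS types only, an alternative chosen after seeing the data, the difference was 1.76 for posterior mesoderm (adjusted p = 0.0139) and -3.70 for mesenchyme (adjusted p = 0.0139), a total in which the lower share of mesenchyme still raises that of posterior mesoderm, and the small differences of PS and PGCs turned to -0.37 and -0.29.

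The experiment number pairs the libraries, and with it as a replicate block 7 types were called in place of 2. Posterior mesoderm (log2 2.33, adjusted p = 0.00131) and EOi early mesoderm (1.57, adjusted p = 0.0139) were then higher. Mesenchyme (-3.36, adjusted p = 0.000164), HE (-2.24, adjusted p = 0.00323), EOd early mesoderm (-2.87, adjusted p = 0.00274), HE precursors (-2.17, adjusted p = 0.0303) and blood progenitors (adjusted p = 0.00573) were lower. Without the block, no call was made when WT exp1, WT exp2 or Eomes-KD exp2 was left out (lowest adjusted p 0.144, 0.0841 and 0.0793), although the differences stayed at 1.99, 2.77 and 1.95 for posterior mesoderm and at -3.23, -3.07 and -2.60 for mesenchyme, whereas without Eomes-KD exp1 there were 1 higher and 4 lower. With TMM factors posterior mesoderm was no longer called (log2 2.39, adjusted p = 0.0957).

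The extended atlas labels asked to which cells of the embryo the day 4 cells were closest. The label haematoendothelial progenitors, precursors of blood and vessels in the atlas, was carried by 28.8% of WT exp1 and 18.5% of WT exp2, but by 2.82% of Eomes-KD exp1 and 1.21% of Eomes-KD exp2. That is 10.2-fold and 15.3-fold lower within experiments, more than for the HE type itself, which did not hold in the first annotation of the same atlas (given below). Of the 26 labels tested, 0 (0%) were called in either direction by edgeR, with 1 higher and 2 lower at an unadjusted p under 0.05, whereas DESeq2 called 1 higher and 1 lower. The haematoendothelial label had a log2 difference of -3.56 (SE 1.08, adjusted p = 0.285 by edgeR) and was the one DESeq2 called lower (adjusted p = 0.00283). With the replicate block it was called (-3.65, adjusted p = 0.00595). The label blood progenitors fell on 23 and 4 WT cells and on 0 Eomes-KD cells, at least 12.8-fold lower over the group. Within experiments the bound was 7.72-fold in exp1 and 1.40-fold in exp2. The label was called with the block (adjusted p = 0.0292) and with TMM factors, but not by edgeR without either.

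Paraxial mesoderm, the mesoderm beside the midline that forms somites, was the label of 0.624% and 1.06% of the WT cells, of 3.65% of Eomes-KD exp1 and of 11.9% of Eomes-KD exp2. The groups did not overlap, and the label was 5.85-fold and 11.2-fold higher within experiments (log2 3.19, SE 1.09, adjusted p = 0.285 by edgeR, 0.0256 by DESeq2, 0.00736 with the block). With TMM factors the difference was 1.17 (adjusted p = 0.713). Most cells with the other labels of the body axis were in Eomes-KD exp2. Intermediate mesoderm, which forms the kidney and gonad, fell on 1 and 11 cells of WT, on 5 cells of Eomes-KD exp1 and on 298 cells, 10.05%, of Eomes-KD exp2 (log2 4.39, adjusted p = 0.290, with the block 4.15 and 0.0144). Presomitic mesoderm fell on 0, 4, 7 and 43 cells in the order WT exp1, WT exp2, Eomes-KD exp1 and Eomes-KD exp2. Caudal epiblast, the posterior remnant of the epiblast, fell on 0, 1, 2 and 36 cells in that order (log2 4.67, adjusted p = 0.293, with the block 4.99 and 0.0129).

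Lateral plate mesoderm, from which limb and heart tissues derive and which the study counts among ExEM populations, was the commonest label. It was on 40.3% and 50.6% of WT and 56.2% and 55.5% of Eomes-KD, 1.40-fold and 1.10-fold higher within experiments, and was not called by edgeR. The types that carried it were not the same in both groups (not tested). Of the cells with this label, mesenchyme made up 67.6% in WT exp1 and 60.6% in WT exp2, against 9.42% in Eomes-KD exp1 and 49 of 1647 cells in Eomes-KD exp2. Posterior mesoderm made up 15.0% and 22.1% in WT, against 61.8% and 82.2% in Eomes-KD. Nascent mesoderm, the label of cells that have just left the PS, was on 7.48% and 7.31% of WT and on 6.13% and 2.36% of Eomes-KD, and mesenchyme carried the largest part of it in WT (48.1% and 36.9%) and posterior mesoderm in Eomes-KD (58.4% and 61.4%). The haematoendothelial label was carried by the HE type for 94.7% and 94.6% of its cells in WT and for 73.2% and 30.6% in Eomes-KD, where posterior mesoderm carried 19.5% and 52.8% of it.

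**Figure D2:**
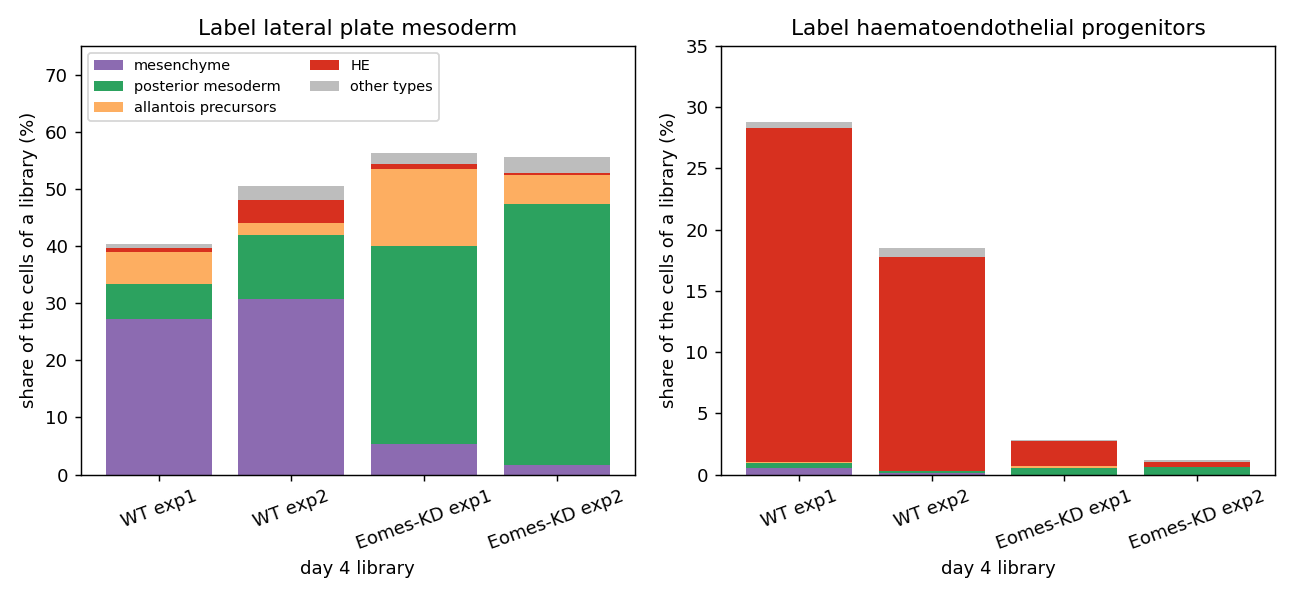
Share of all cells of a library (%) with the label lateral plate mesoderm (left) or haematoendothelial progenitors (right), split by cell type in colour, with a separate vertical scale in each panel. Lateral plate bars are higher in Eomes-KD, 40.3% and 50.6% in WT and 56.2% and 55.5% in Eomes-KD, and mesenchyme fills most of the WT bars and posterior mesoderm most of the Eomes-KD bars.

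Among the remaining labels, the groups overlapped for allantois, allantois endothelium, venous endothelium and non-neural ectoderm but not for PS. Allantois was the label of 5.75% and 7.31% of WT, 14.5% of Eomes-KD exp1 and 5.50% of Eomes-KD exp2, so that it was 2.52-fold higher in exp1 and 1.33-fold lower in exp2 (log2 0.61, adjusted p = 0.993). Allantois endothelium, the vessel-forming cells of the allantois, was on 6.65% and 7.81% of WT and on 7.98% and 4.11% of Eomes-KD (log2 -0.26). Venous endothelium separated the experiments, with 46 and 37 cells in the exp1 libraries and 8 and 8 in the exp2 libraries. The PS label was on 1.46% and 1.45% of WT and 0.964% and 0.809% of Eomes-KD, and non-neural ectoderm on 0.901% and 0.994% of WT and 1.45% and 0.877% of Eomes-KD. Scaling by TMM factors moved the median difference of the 14 labels named here by -1.42 on the log2 scale and turned the sign of lateral plate mesoderm, allantois, non-neural ectoderm and PGC.

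The first annotation of the same atlas, added after seeing the data, divides the cells by other names. Its label Mesenchyme was on 13.1% and 9.62% of WT and 0.826% and 0.405% of Eomes-KD (log2 -4.22, adjusted p = 0.155, with the block -4.29 and 0.000364), and Blood_progenitors_1 on 114 and 70 cells of WT and on 0 of Eomes-KD. ExE_mesoderm was on 17.5% and 36.6% of WT and on 57.5% and 55.8% of Eomes-KD. Haematoendothelial_progenitors was on 28.5% and 24.9% of WT and on 12.3% and 6.10% of Eomes-KD. That is 2.32-fold and 4.08-fold lower within experiments, less than for the HE type (3.22-fold and 6.53-fold). None of its 20 tested labels (0%) was called by edgeR, 3 being lower at an unadjusted p under 0.05. DESeq2 was not run on this annotation. The replicate block gave 3 higher and 4 lower.

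The MOFA clusters resolved some types further. Mesenchyme, HE, HE precursors, blood progenitors, endothelium and allantois precursors each came from 1 cluster at day 4, so for these the cluster and the type give the same comparison. None of the 18 clusters (0%) passed the edgeR test, although 3 higher and 3 lower had an unadjusted p under 0.05, 3 lower were called by DESeq2 and 11 with the replicate block. The mesenchyme cluster 5 had the lowest unadjusted p (log2 -3.15, adjusted p = 0.0630, with the block adjusted p = 9.58e-07). Among the clusters of the early mesoderm types, cluster 0 (EOd) held 7 and 42 WT cells against 2 and 2 Eomes-KD cells. Cluster 1 (also EOd) held 19 and 11 WT cells against 5 and 2. Cluster 8 (EOi) held 0.624% and 0.532% of WT and 1.65% and 2.12% of Eomes-KD (log2 1.71, adjusted p = 0.0630), and cluster 9 (EOi) 4 and 44 WT cells against 33 and 129 Eomes-KD cells.

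Posterior mesoderm came from clusters 4 and 13, and both were larger in Eomes-KD. Cluster 4 held 5.75% and 7.98% of WT and 30.6% and 39.2% of Eomes-KD (log2 2.34, adjusted p = 0.0650), and cluster 13 held 2.77% and 7.06% of WT and 13.4% and 30.7% of Eomes-KD (log2 2.16, adjusted p = 0.0698). Within posterior mesoderm, cluster 13 took 32.8% of WT exp1 and 30.7% of Eomes-KD exp1 but 45.7% of WT exp2 and 44.1% of Eomes-KD exp2. The split of the type into its clusters therefore followed the experiment, and the difference between treatments was -0.10 on the log2 scale (adjusted p = 0.888). Over all types, 10 combinations of type and cluster were tested within types and 0 (0%) were called or had an unadjusted p under 0.05 by edgeR, and DESeq2 called 0.

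The next question was whether cells of 1 type had the same makeup under both treatments. HE cells had different leading extended labels in WT and in Eomes-KD. In WT, 68.6% of the 573 HE cells of exp1 and 56.1% of the 881 of exp2 were closest to haematoendothelial progenitors, against 16.8% of the 179 HE cells of Eomes-KD exp1 and 7.75% of the 142 of Eomes-KD exp2. Allantois endothelium was on 16.8% and 24.5% of the WT HE cells, against 58.7% and 75.4% of the Eomes-KD HE cells. In cells, this label fell on 96 and 216 HE cells of WT and on 105 and 107 of Eomes-KD, whereas the haematoendothelial label fell on 393 and 494 against 30 and 11. The groups of libraries did not overlap in either share.

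The test within types, on only the 4 libraries, did not call either label. Haematoendothelial progenitors within HE had a log2 difference of -2.34 (SE 0.62, adjusted p = 0.383) and allantois endothelium of 1.70 (SE 0.50, adjusted p = 0.383) by edgeR, and with the block the adjusted p of both was 0.106. Of 30 combinations of type and label, 0 (0%) were called, 1 was higher and 1 lower at an unadjusted p under 0.05, and DESeq2 called 0. The order of the libraries was the same at matched depth: among HE cells with 10000 to 20000 RNA counts, the haematoendothelial label was on 71.8% and 55.3% of WT and on 20.5% and 5.81% of Eomes-KD. HE cells were also deeper than their library in every case, with medians of 24814 and 12669 in WT and 20159 and 12275.5 in Eomes-KD.

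**Figure D3:**
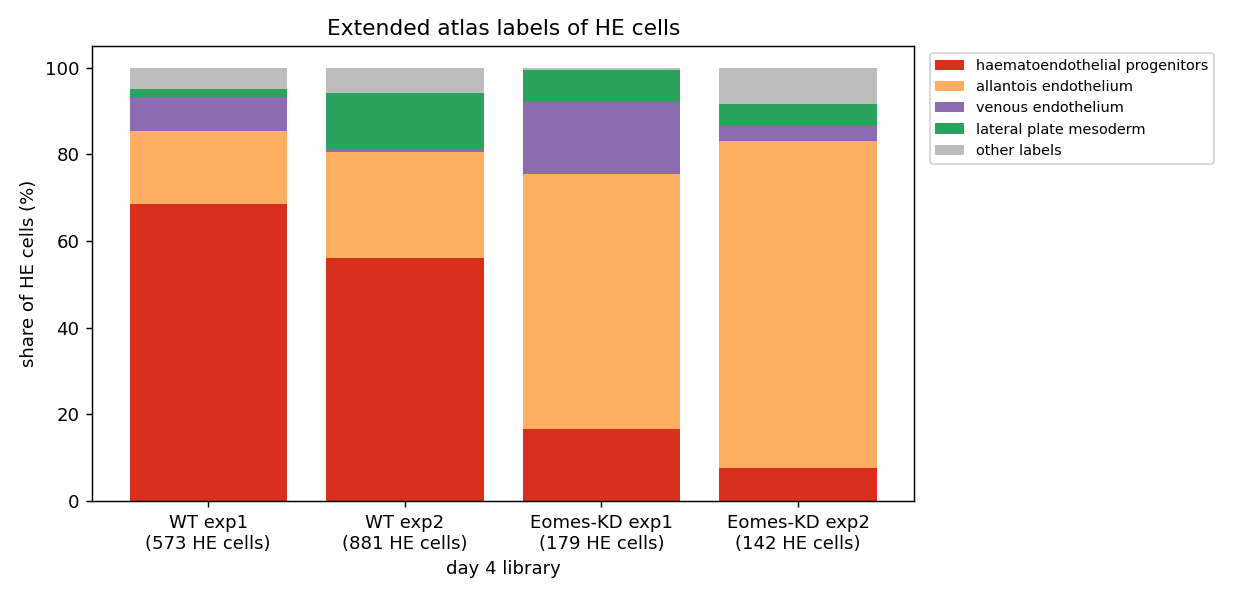
Extended atlas labels of the HE cells of each day 4 library, as a share of its HE cells (%), with the number of HE cells under each bar. Haematoendothelial progenitors fill 68.6% and 56.1% of the WT bars and 16.8% and 7.75% of the Eomes-KD bars, and allantois endothelium 16.8% and 24.5% against 58.7% and 75.4%.

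Other labels of HE cells varied by library. Venous endothelium was on 7.85% and 16.8% of the HE cells of WT exp1 and Eomes-KD exp1 and on 0.681% and 3.52% of those of WT exp2 and Eomes-KD exp2. In the first atlas annotation, Blood_progenitors_1 marked 111 and 69 HE cells of WT and none of Eomes-KD, while Haematoendothelial_progenitors marked 68.8% and 75.4% of WT HE cells and 85.5% and 92.3% of Eomes-KD HE cells (not tested within types). Under that annotation the leading label of HE cells was thus the same in every library. The extended labels can be followed over time in WT: at day 3.5 the haematoendothelial label was on 93.8% and 89.1% of HE cells and allantois endothelium on 1.54% and 4.65%. At day 4.5 the shares were 47.5% and 30.0% of 80 WT HE cells and 21.4% and 60.7% of 28 Eomes-KD HE cells, from 1 library each. The WT day 4.5 HE cells lay between the WT and the Eomes-KD day 4 libraries in both labels.

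Posterior mesoderm was the type with the most cells in Eomes-KD, 631 and 2043, against 119 and 398 in WT. Lateral plate mesoderm was its main label in each library, on 73.1% and 79.1% of its WT cells and 80.03% and 66.3% of its Eomes-KD cells. Paraxial mesoderm marked 4.20% and 3.02% of its WT cells, 7.45% of its cells in Eomes-KD exp1 and 16.1% in Eomes-KD exp2 (log2 1.74, adjusted p = 0.383 by edgeR). Among its cells with 10000 to 20000 RNA counts, paraxial mesoderm marked 8.16% of WT exp1 (4 of 49 cells), 1.61% of WT exp2, 8.02% of Eomes-KD exp1 and 13.2% of Eomes-KD exp2, so that in exp1 the treatments hardly differed. Intermediate mesoderm marked 2.04%, 2.15%, 0.860% and 8.65% of these cells in that order, higher with dTAG-13 in exp2 and lower in exp1. Nascent mesoderm marked 14.3% and 10.6% in WT, 8.24% in Eomes-KD exp1 and 2.10% in Eomes-KD exp2.

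Eomes-KD exp2 stood apart in labels of the body axis across types. Paraxial, intermediate and presomitic mesoderm and caudal epiblast together marked 0.693% and 1.63% of all WT cells, 4.61% of Eomes-KD exp1 and 24.6% of Eomes-KD exp2. In posterior mesoderm these labels were on 6, 22, 56 and 577 cells in the order WT exp1, WT exp2, Eomes-KD exp1 and Eomes-KD exp2, the last being 28.2% of the type. Among PS cells they were on 0 of 35, 1 of 78, 2 of 41 and 43 of 93, and among EOi cells on 0 of 17, 6 of 74, 8 of 62 and 94 of 205, in the same order. The PS cells of Eomes-KD exp2 included 29 with the label caudal epiblast, and its EOi cells 77 with the label intermediate mesoderm. The label PS was on 45.7% and 50% of WT PS cells and on 31.7% and 21.5% of those of Eomes-KD. Median depth of posterior mesoderm was 10398.5 counts in WT exp2 and 10296 in Eomes-KD exp2 and 22891 in WT exp1 against 18378 in Eomes-KD exp1. The extended label score of posterior mesoderm, at a median of 0.68 in both WT libraries, was 0.80 and 0.72 in Eomes-KD.

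The few cells still called mesenchyme in Eomes-KD, 84 and 64 against 478 and 1041 in WT, had the same leading label as in WT. Lateral plate mesoderm was on 82.2% and 83.0% of mesenchyme in WT and on 91.7% and 76.6% in Eomes-KD, and nascent mesoderm on 10.9% and 7.30% against 3.57% and 0%. Allantois precursors were divided between the labels allantois, on 42.9% and 62.05% of WT and 50.4% and 46.1% of Eomes-KD, and lateral plate mesoderm, on 55.8% and 37.3% of WT and 49.1% and 51.9% of Eomes-KD, with overlapping groups. The label PGC was on 100%, 97.6%, 96.8% and 93.5% of PGCs, in the order used above, but the PGC type was itself taken from label transfer.

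Mapped stage asked how far the cells had come along embryonic time. Early stages had lower shares in both Eomes-KD libraries than in either WT library, with no stage past the test. E7.25 was the stage of 34.8% and 28.4% of WT cells and of 11.4% and 6.20% of Eomes-KD cells, 3.05-fold and 4.58-fold lower (log2 -1.84, SE 0.66, adjusted p = 0.118 by edgeR). E7.0 was the stage of 5.06% and 4.15% of WT and of 1.45% and 1.25% of Eomes-KD (log2 -1.77, adjusted p = 0.118). E8.0 held 15.6% and 32.6% of WT cells and 50.1% and 51.8% of Eomes-KD cells (log2 1.08, adjusted p = 0.551). These 3 of the 8 stages did not overlap between the groups, a share near the 0.33 that 2 libraries against 2 give without a difference.

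The other stages did not separate the treatments. E7.5 was on 20.3% and 14.3% of WT against 8.26% and 18.8% of Eomes-KD, E7.75 on 19.5% and 10.9% against 9.84% and 13.9%, and E8.25 on 3.12% and 8.80% against 15.3% and 7.35%. E8.5 was on 1.59% and 0.710% of WT and on 3.51% and 0.674% of Eomes-KD, and E6.5 on 1 cell in each of WT exp2 and Eomes-KD exp1. None of the 8 stages (0%) was called by edgeR, 2 being lower at an unadjusted p under 0.05. DESeq2 called E7.0 and E7.25 lower, and the replicate block called 0. Summed, E8.0 or later took 20.3% and 42.2% of WT and 69.0% and 59.8% of Eomes-KD.

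Averaged over all cells of a library, the mapped stage was E7.554 in WT exp1 and E7.671 in WT exp2, against E7.889 in Eomes-KD exp1 and E7.834 in Eomes-KD exp2. The group means differed by 0.249 days, 0.335 in exp1 and 0.162 in exp2, with an SD of 0.0831 in WT and 0.0389 in Eomes-KD (n = 2 each). With 2 libraries against 2, the smallest two-sided p an exact permutation test can give is 0.33, so this value was not tested. With the 6 larger types weighted equally, the difference was 0.173 days.

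Within types, HE and PS cells mapped to later stages in Eomes-KD. HE cells had a mean stage of E7.61 and E7.64 in WT and of E8.02 and E8.01 in Eomes-KD, a rise of 0.388 days (SE 0.0228, adjusted p = 0.00284 by limma over the 6 types), or 9.30 h on the atlas scale. PS cells had E7.257 and E7.253 in WT and E7.384 and E7.395 in Eomes-KD, a rise of 0.134 days (SE 0.0195, adjusted p = 0.0194). These 2 of 6 types, 33.3%, were later in Eomes-KD, and none was earlier (0% by limma, and 0 at an unadjusted p under 0.05). With the replicate block the SE was larger, and the HE call was made (SE 0.0803, adjusted p = 0.0234) and the PS call was not (SE 0.0798, adjusted p = 0.223). Without Eomes-KD exp1 or without Eomes-KD exp2 neither type was called (HE adjusted p = 0.0845 and 0.0774), although the differences were 0.378 and 0.397 days for HE and 0.140 and 0.129 days for PS. Without WT exp1, HE alone was called, and without WT exp2 there were 5 calls.

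Mesenchyme and posterior mesoderm had means that differed most between the WT libraries. Mesenchyme was at E7.443 and E7.687 in WT and at E7.777 and E7.809 in Eomes-KD (0.228 days, adjusted p = 0.229). Posterior mesoderm was at E7.462 and E7.779 in WT and at E7.826 and E7.850 in Eomes-KD (0.217 days, adjusted p = 0.298). In both, WT exp1 was early and the other 3 libraries lay close together. Allantois precursors were at E7.935 in WT exp1 and between E8.097 and E8.114 in the others (0.0876 days, adjusted p = 0.367). PGCs, at E7.433 and E7.536 in WT and E7.532 and E7.400 in Eomes-KD, differed by -0.0178 days (adjusted p = 0.819).

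**Figure D4:**
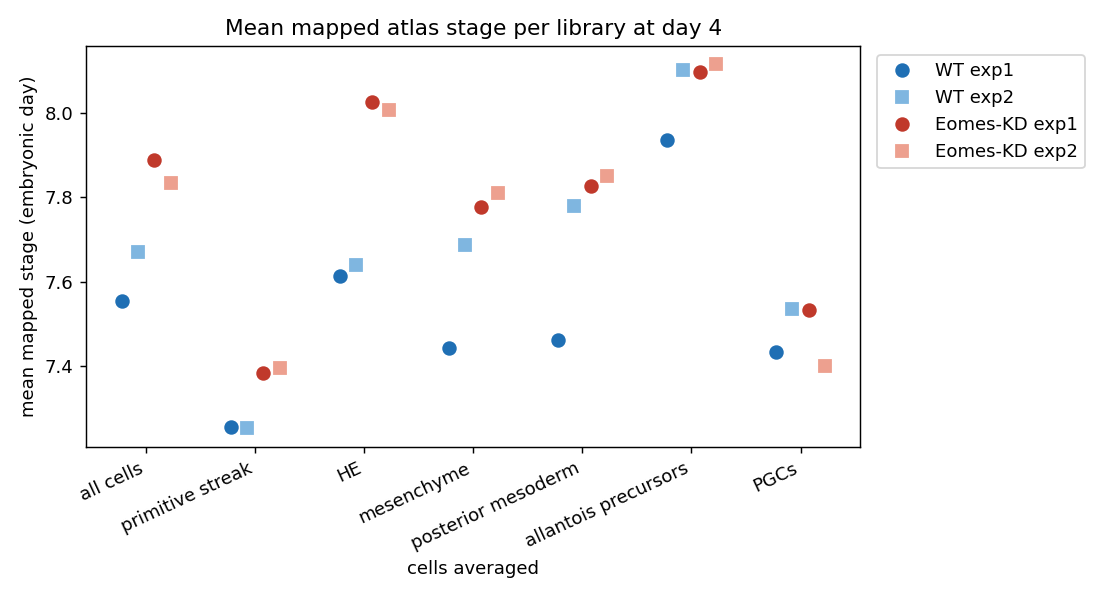
Mean mapped atlas stage (embryonic day) of all cells and of the 6 types with 20 or more cells in each library, 1 point per library, with circles for exp1, squares for exp2, blue for WT and red for Eomes-KD. HE cells lie at E7.61 and E7.64 in WT and at E8.02 and E8.01 in Eomes-KD, while for posterior mesoderm and mesenchyme WT exp1 lies below the other libraries.

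For HE cells the mapped stage differed between the 2 leading labels as well as between treatments. HE cells labelled haematoendothelial progenitors were at E7.475 and E7.460 in WT and E7.558 and E7.477 in Eomes-KD, and those labelled allantois endothelium at E7.930 and E8.006 in WT and E8.090 and E8.068 in Eomes-KD. Cells of either of these labels thus differed less between treatments than the 2 labels did within a library (not tested). HE cells labelled lateral plate mesoderm were fewer, 11 and 114 in WT and 13 and 7 in Eomes-KD. Their stage was later in Eomes-KD within both experiments, E7.295 against E7.596 in exp1 and E7.592 against E7.893 in exp2. How much of the rise of the HE type came from its labels was not tested. PS cells with the label PS were at E7.156 and E7.128 in WT and at E7.173 and E7.188 in Eomes-KD. Those labelled non-neural ectoderm were at E7.375 and E7.500 in WT and at E7.393 and E7.426 in Eomes-KD. Neither label, on 12 to 39 PS cells per library, rose as much as the PS type did (not tested). By stage, 20.9% and 35.4% of WT HE cells and 77.7% and 86.6% of Eomes-KD HE cells were at E8.0 or later. E7.5 held 24.4% and 18.4% of WT HE cells and 1.68% and 4.23% of Eomes-KD HE cells (log2 -2.88, adjusted p = 0.0613), and E8.5 held 3.84% and 1.25% against 23.5% and 7.04% (log2 2.61, adjusted p = 0.0613). Over time the WT HE cells were at E7.177 and E7.233 at day 3.5 and at E7.803 at day 4.5, and the Eomes-KD HE cells of day 4.5 at E7.946.

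In mesenchyme, E7.25 was the stage of 52.7% and 32.8% of WT cells and of 14.3% and 4.69% of Eomes-KD cells, and E8.0 of 7.95% and 35.3% against 47.6% and 51.6%. In posterior mesoderm, E7.25 was on 47.1% and 17.1% of WT cells against 12.8% and 3.82%, and E8.0 on 10.9% and 47.7% against 63.9% and 60.4%. Among PS cells E7.0 was on 45.7% and 37.2% in WT and on 26.8% and 12.9% in Eomes-KD, and E7.5 on 25.7% and 21.8% against 34.1% and 59.1%. In PGCs, E7.75 was on 42.3%, 41.7% and 38.7% in WT exp1, WT exp2 and Eomes-KD exp1 and on 8.33% in Eomes-KD exp2. Of the 33 combinations of type and stage, 0 (0%) were called by edgeR or by DESeq2, and 1 was higher and 7 lower at an unadjusted p under 0.05.

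The experiments can be set against each other because their libraries are separate. Taking the log2 ratio of Eomes-KD to WT in each experiment for every label with 10 or more day 4 cells, all 11 cell types went the same way in both, and the ratios had a Pearson's r of 0.908 across types, which are not independent. Of the clusters, 14 of 16 went the same way (r = 0.885). Of the extended labels, 13 of 17 did (r = 0.690), the exceptions being allantois, allantois endothelium, non-neural ectoderm and amniotic ectoderm, the last with 11 cells in all. Of the stages only 3 of 7 did (r = 0.519), namely E7.0, E7.25 and E8.0. Groups of libraries did not overlap for 8 of 11 types, where 8.33% of types were called in each direction, and for 11 of 16 clusters, 9 of 17 extended labels and 3 of 7 stages, where 0% were. With 2 libraries against 2, a label without a difference separates in this way with a probability of 0.33.

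The same direction did not mean the same size. For 3 types the counting intervals of the ratios of the 2 experiments were apart: allantois precursors had ratios of 2.68 in exp1 and 1.69 in exp2, and mesenchyme and HE were lower by a larger factor in exp2. Among extended labels the intervals were apart for 4, of which lateral plate and nascent mesoderm had the same sign in both and allantois and allantois endothelium opposite signs. Among stages they were apart for 5 of 7.

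**Figure D5:**
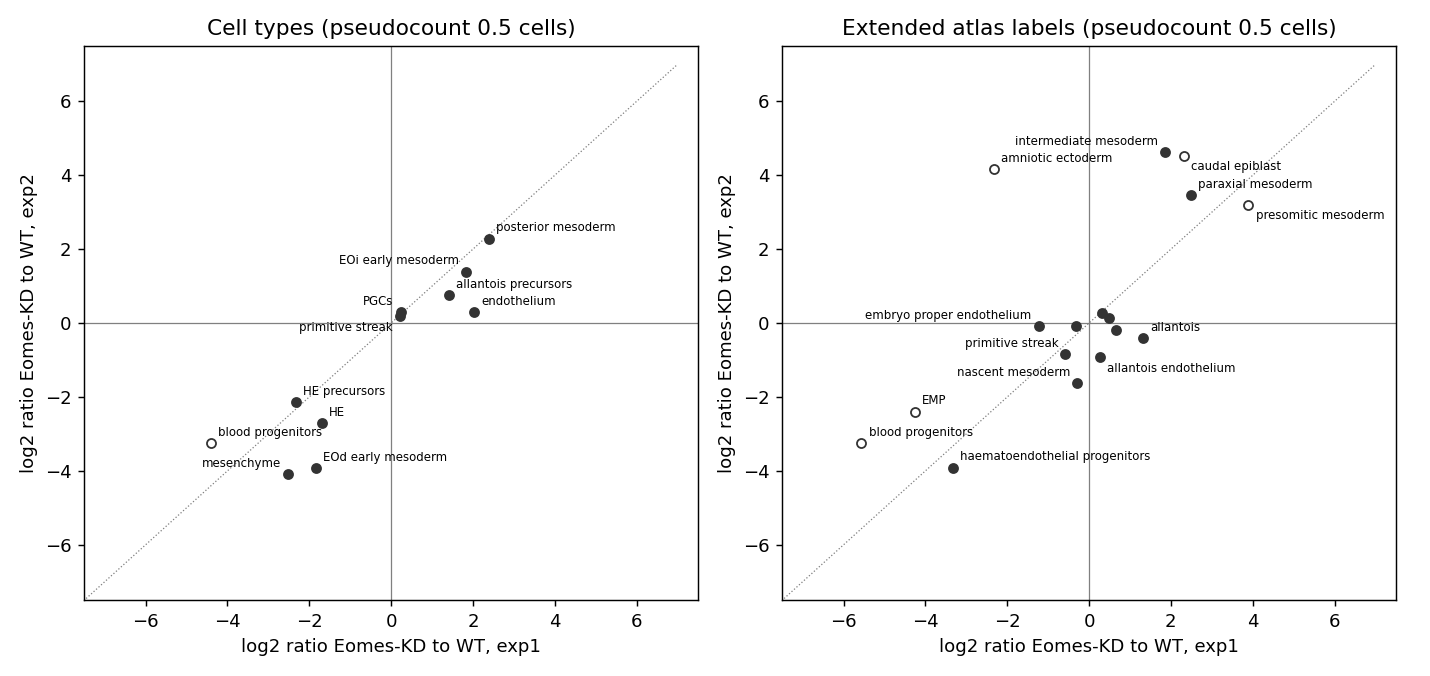
Log2 ratio of the share in Eomes-KD to that in WT within exp1 (horizontal) and within exp2 (vertical), with a pseudocount of 0.5 cells, for cell types (left) and extended atlas labels (right) with 10 or more day 4 cells, open circles marking labels with 0 cells in some library and the dotted line equality. All 11 types lie in the lower left or upper right of the panel, where both experiments have the same sign, whereas 4 of the 17 labels do not.

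The distance between libraries was taken as the percentage points of cells that would have to change their name. By cell type, the 2 WT libraries were 13.6 points apart, the 2 Eomes-KD libraries 30.2, and WT and Eomes-KD libraries between 53.7 and 68.9. By cluster the values were 14.4, 30.1 and 53.6 to 68.8. By extended label they were 15.7, 22.2 and 19.1 to 41.7, and Eomes-KD exp1 was nearer to WT exp2 (19.1) than to the other Eomes-KD library. By stage they were 22.8, 16.3 and 26.6 to 48.7, and the WT library nearest to Eomes-KD exp1 was that of day 5 (21.7).

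Day 3.5, the middle of the dTAG-13 window, allows a test of whether a difference at day 4 was the same at day 3.5. By cell type, WT day 4 lay 88.9 points from WT day 3.5 in exp1 and 87.0 points in exp2. In WT, mesenchyme and HE therefore held smaller shares at day 3.5 than at day 4. The shares of single types at day 3.5 are not given here, so the cells behind that side of the test cannot be judged. For mesenchyme the difference between Eomes-KD and WT was more negative at day 4 than at day 3.5 by 3.59 on the log2 scale (SE 1.11), which did not pass the adjustment over 12 types (adjusted p = 0.199) but did with the block (-3.73, adjusted p = 0.00802). Its cluster 5 gave the same picture (-3.58, adjusted p = 0.264, with the block -3.73 and 0.00123). No type, label, stage or cluster (0% in each) passed this interaction test by edgeR, with 1 type and 1 cluster lower at an unadjusted p under 0.05, and DESeq2 was not run on it. Posterior mesoderm differed by -0.10 and HE by 0.16 between the days (adjusted p = 1.00 for both).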

How the data were processed

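EBs of days 3 to 5 were dissociated, and RNA and accessible chromatin of each nucleus were sequenced with 10x Multiome reagents. According to the methods, the authors mapped reads with Cell Ranger ARC 2.0.1 to mm10, filtered nuclei on RNA and chromatin quality, removed doublets with scds and built clusters and cell types on a MOFA+ integration, with PGCs taken from label transfer. The deposited table holds 1 line per annotated cell and 28 columns, of which 17 were used. No matrix of genes or peaks was analysed here.

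The RNA counts and the numbers of genes per cell were left unnormalized by the authors. For each cell the authors also gave the percent of RNA counts from mitochondrial and from ribosomal genes. The doublet score was computed by the authors with the hybrid method of scds. The authors transferred labels library by library, and the deposited label scores are the fraction of the 25 atlas neighbours of a cell that carry its label. Because cell types come from clusters of all libraries together, a type is a part of a shared clustering and not an independent call.

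Cells were counted per label and library. Shares of annotated cells have 95% Wilson intervals, and a count of 0 was bounded by 3 cells. The main test was that of edgeR 4.0.16, run in R 4.3.3 (quasi-likelihood without abundance trend, library size set to the annotated cells, labels with 10 or more cells, Benjamini-Hochberg adjustment within each annotation, threshold 0.05). The fit held the 12 libraries of days 3.5 to 5 with 1 group per day and condition, and all groups share 1 spread. Each group later than day 4 held 1 library and added nothing to the estimate of that spread. The spread therefore came from the libraries of days 3.5 and 4 only. Tests within types used the 4 day 4 libraries, the cells of the type as library size and the 6 types with 20 or more cells in each library. Mean stage within types was tested with limma 3.58.1. The table records cells of GEO samples through 14 libraries, and p-values measure the spread between these libraries only, with 2 per condition at day 4. The study itself tested abundance per cell, which treats cells as replicates. The experiment number pairs a WT and an Eomes-KD library of 1 differentiation per the methods. At day 4 the deviations of same-numbered libraries correlated by 0.747 over types, 0.454 over extended labels, 0.663 over clusters and 0.0454 over stages, so the block is an alternative that is printed where it changes a call.

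Alternatives were TMM factors, DESeq2 1.42.0, no filter on few cells, only the day 4 libraries, cells with 10000 to 20000 RNA counts, label or stage scores of 0.5 or more, the median stage, the replicate block and leaving out each day 4 library. Every cell type and stage is named, with labels and clusters holding 1% or more of a day 4 library or past the threshold, and combinations within types past the threshold or holding 20% or more of a type. Combinations and labels given outside this rule were chosen after their values were seen. They include paraxial, intermediate and nascent mesoderm within posterior mesoderm, venous endothelium within HE and nascent mesoderm within mesenchyme. Caudal epiblast within PS and the summed labels of the body axis were also chosen in this way. The members, lists and tests were chosen with earlier results of these data known. The tests were also run on simulated data with known changes. The simulated counts had less spread between libraries than the real ones, so these runs do not show how well the tests perform here. Tables were made with pandas 2.3.3, numpy 2.4.6 and scipy 1.17.1 in Python 3.11.15, and plots with matplotlib 3.10.9.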

Additional observations from a re-analysis of the deposited data

Results flagged for a closer look

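The extended label PS went one way at day 3.5 and the other at day 4. At day 3.5 it was on 18.5% and 17.0% of the Eomes-KD cells and on 9.66% and 7.02% of the WT cells of exp1 and exp2. At day 4 it was on 0.964% and 0.809% of Eomes-KD and 1.46% and 1.45% of WT. The named types, labels, stages and clusters were screened for groups that separated in opposite directions at day 3.5 and day 4. The agreement of both experiments is therefore part of the selection and gives no separate support. How many would be flagged without a difference was not estimated. The difference between the days was -1.81 on the log2 scale (SE 0.99, adjusted p = 0.952, edgeR's interaction test over the 12 libraries) and did not pass the test.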

How the results depend on the processing

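None of the 4 called values (posterior mesoderm, mesenchyme and the mean stage of HE and PS cells) reversed under the alternatives run, and 31 of the 94 named values changed sign at least once. Counts of calls moved as follows, given as higher and lower in Eomes-KD. For cell types (1 and 1), TMM factors gave 0 and 2, the replicate block 2 and 5, DESeq2 3 lower, only day 4 libraries 3 lower and cells with 10000 to 20000 RNA counts 5 lower, and leaving out 1 library gave 0 to 1 higher and 0 to 4 lower. For extended labels (0 and 0), DESeq2 gave 1 and 1, the replicate block 3 and 2, the block on only day 4 libraries, chosen after seeing the data, 4 and 3, and TMM factors 2 lower. For stages, DESeq2 gave 2 lower. For clusters, the block gave 5 and 6, the depth window 2 and 3, and TMM factors and DESeq2 3 lower each. For the first atlas annotation, the block gave 3 and 4. In the difference of day 4 and day 3.5, the block gave 1 lower type and 1 lower cluster. For stages within types, the depth window gave 1 and 1, and leaving out 1 library 0 to 3 higher and 0 to 4 lower. For mean stage within types (2 higher), the block and the depth window gave 1, and leaving out 1 library 0 to 5. The mean stage of all cells (0.249 days) was 0.375 as a median and 0.459 for stage scores of 0.5 or more. The cause of these shifts was not tested. The replicate block changed no other call than those given here and in the text above.

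Signs turned for small or scarce differences, on the log2 scale. With YS types left out, PGC became -0.29 and PS -0.37. With TMM factors the labels allantois, lateral plate mesoderm, non-neural ectoderm and PGC became -0.45, -1.12, -0.97 and -1.38, and clusters 11 and 6 became -0.18 and -0.15. The label allantois endothelium became 0.053 at label scores of 0.5 or more, venous endothelium 1.25 and lateral plate within posterior mesoderm 0.037 in the depth window, and E6.5 -0.18 with the block. Leaving out 1 library gave ranges that cross 0 for the types allantois (-2.47 to 3.37), endothelium (-0.35 to 2.80) and PGC (-0.18 to 0.69). It did so for the labels allantois (-0.25 to 1.15), allantois endothelium (-0.81 to 0.14), non-neural ectoderm (-0.11 to 0.60), PGC (-0.090 to 0.72) and venous endothelium (-2.64 to 2.26). It did so for the stages E6.5 (-2.38 to 2.43), E7.5 (-1.07 to 0.12), E7.75 (-0.72 to 0.12) and E8.5 (-0.75 to 1.62), and for clusters 15 (-0.37 to 2.78) and 6 (-0.17 to 0.46). Within types it did so for the label allantois (-0.36 to 0.17) and lateral plate (-0.14 to 0.43) in allantois precursors, lateral plate in mesenchyme (-0.11 to 0.15) and in posterior mesoderm (-0.20 to 0.071), and non-neural ectoderm in PS (-0.55 to 0.34). For stages it did so for E7.5 (-0.021 to 0.83) and E7.75 (-0.12 to 0.80) in mesenchyme, and for E7.25 in PGCs (-0.35 to 0.43) and in PS (-0.52 to 0.38). For clusters it did so for cluster 13 in PGCs (-2.20 to 1.09), clusters 13 (-0.40 to 0.20) and 4 (-0.11 to 0.21) in posterior mesoderm and cluster 11 in PS (-0.084 to 0.042), and for the mean stage of PGCs (-0.0837 to 0.0481 days). Clusters within types in the depth window were not run, since too few combinations were left. With 2 libraries per condition and as few as 1443 cells, shares below 1% were estimated least precisely.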
